A study of Mus musculus with 12 samples.

Results

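The IL-6 family genes are the cytokines and receptors that signal through the shared subunit gp130. They were taken by gene name from a list of 10 genes (Il6, Il11, Lif, Osm, Ctf1, Clcf1, Il6st, Il6ra, Lifr and Osmr), and all 10 were found among the 52550 genes of the deposited tables. D2A1 and D2.OR are related mouse lines from mammary tumors, and their RNA was sequenced after a week of culture, either in 2D or in 3D, where the cells lie on a bed of Matrigel, a basement membrane extract, in medium that also holds some Matrigel. The lines came from separate tumors of different mice, and in this model D2A1 proliferates in 3D whereas D2.OR stops dividing and serves as a model of dormancy. Each of the 4 groups (D2A1 in 2D, D2A1 in 3D, D2.OR in 2D and D2.OR in 3D) had 3 replicates, 12 libraries in all, with no added agent or introduced allele named in the labels. A line is represented by 1 cell line only, so that a difference between the groups is a difference between these 2 cell lines and not between dormant and proliferative tumors in general. By the labels a replicate number is a batch number, and every batch ran in 1 sequencing lane, so that batch and lane cannot be told apart.

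Cytokines of this family bind receptors that share the gp130 subunit, encoded by Il6st. IL-6 and IL-11 first bind a private alpha receptor, LIF, CT-1 and CLCF1 use gp130 with the LIF receptor, and OSM can use gp130 with the OSM receptor. The receptors activate JAK kinases and the transcription factor STAT3, and STAT3 turns on SOCS3, which inhibits the receptor in return. In the mammary gland, LIF and STAT3 are known for their part in involution, and tumor cells and the stroma around them can both secrete IL-6.

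Library totals spanned 47589613 to 73325057 expected counts, with 61747090 as the median, and the test ran on the 16823 genes that passed a filter on low counts. Of the family, 9 genes passed and Osm did not. Keratin 8, which marks luminal epithelium, was at 227 to 1022 TPM (transcript level scaled for gene length and library size) in D2.OR and at 0.78 to 2.31 TPM in D2A1, while keratin 18 was at 92.7 TPM or more in every library. Among 9 markers of macrophages and other leukocytes, 6 (among them Ptprc, Adgre1, Itgam, Lyz2 and Cd3e) stayed under 0.5 TPM in each library, and so did all 5 endothelial markers. The replicates are separate samples by their labels, which do not state whether they were separate cultures, and p-values then measure only the spread between these samples.

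The promoter letters of Il6, Il11 and Lif are shown because Il6 and Il11 had the largest fold differences of the family between batches, Lif had the largest between cultures in D2.OR, and each of these windows held a match to the AP-1 motif. RefSeq (GRCm38.p6) gave 10 promoters for 8 of the 10 family genes, and the 250 bases before each start are considered. The motifs searched on both strands were AP-1 (TGANTCA), NF-kB (GGG, any 2 bases, TTTCC), STAT (TTCNNNGAA), CRE (TGACGTCA) and C/EBP (TTGCNNAA). Capitals mark matches, which do not overlap each other. Il6 lies on the plus strand at chr5:30012864-30013113, the Il11 window on the minus strand at chr7:4778142-4778391 and the Lif window on the plus strand at chr11:4257318-4257567.
Il6: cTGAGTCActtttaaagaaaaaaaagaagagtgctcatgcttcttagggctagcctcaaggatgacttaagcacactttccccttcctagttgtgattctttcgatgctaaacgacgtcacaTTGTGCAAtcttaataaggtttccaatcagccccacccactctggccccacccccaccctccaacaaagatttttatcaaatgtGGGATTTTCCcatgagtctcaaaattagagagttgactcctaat
Il11: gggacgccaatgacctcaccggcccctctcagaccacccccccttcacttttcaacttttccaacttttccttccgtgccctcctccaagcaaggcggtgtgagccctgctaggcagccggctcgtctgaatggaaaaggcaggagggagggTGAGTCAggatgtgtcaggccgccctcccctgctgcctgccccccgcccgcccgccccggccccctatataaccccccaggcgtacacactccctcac
Lif: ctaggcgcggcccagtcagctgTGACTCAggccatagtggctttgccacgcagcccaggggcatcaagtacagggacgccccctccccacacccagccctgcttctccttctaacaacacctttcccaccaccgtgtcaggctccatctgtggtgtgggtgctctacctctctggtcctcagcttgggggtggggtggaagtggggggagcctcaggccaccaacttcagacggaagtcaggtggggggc
The Il6 window held an AP-1 match at -249 to -243 from the start, a C/EBP match at -128 to -121 and an NF-kB match at -44 to -35. Il11 held TGAGTCA at -98 to -92 of this start, while the window of its other annotated start, chr7:4782858-4783107, held none of the 5 motifs. Lif held TGACTCA at -228 to -222. Over the 32851 promoters of the table, 6.75% held the AP-1 letters in the same stretch, 1.41% the NF-kB letters, 9.56% the C/EBP letters, 7.02% the STAT letters and 1.55% the CRE letters. No STAT or CRE letters were found in the 10 windows, and the windows of Ctf1, Il6st, Il6ra, Lifr and Osmr held no match to any of the 5 motifs.

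The comparison of the cell lines asks how dormancy-prone and proliferative cells differ in the cytokines they make and the receptors they carry. In 2D, 7 of the 9 tested family genes were higher in D2.OR than in D2A1 (Il6, Il11, Ctf1, Clcf1, Il6st, Lifr and Osmr) and Il6ra was lower, so that 8 of 9 passed the test at an adjusted p under 0.05. Across all genes tested, 49.8% differed in 2D, 25.4% higher and 24.4% lower in D2.OR. With a library or a batch left out, the family count in 2D ranged from 3 to 8. It was 3 without batch 2 or without batch 3, against 24.9% and 31.8% of all genes. In 3D, Ctf1, Il6st, Lifr and Osmr were higher in D2.OR and Lif was lower, 5 of 9. There 53.8% of all genes differed (27.7% higher, 26.1% lower), so the 3D count lies near the background. The TPM ranges of the lines did not overlap for 4 of the 9 genes in 2D (Il6, Ctf1, Il6ra and Lifr), against 52.8% of all genes, and for 5 of 9 in 3D (Lif, Ctf1, Il6st, Lifr and Osmr), against 57.4%. The median log2 fold change of the 9 genes was 1.15 in 2D and 0.56 in 3D, against -0.0034 in 2D and 0.00052 in 3D over all genes tested. With bulk RNA, fewer cells that make a transcript and less of it per cell cannot be told apart.

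The comparison of 3D with 2D asks what differs with the Matrigel culture within a line. By the paper's methods the 3D medium held horse serum, hydrocortisone, cholera toxin and insulin. For 2D cultures the methods name either this medium or DMEM with fetal bovine serum, depending on the section. Which of these the sequenced 2D cultures had is not settled in the sources used here. Matrigel and a change of medium, with its serum and additives, therefore cannot be told apart in the folds between cultures. Of the family, Il6 was the 1 gene that passed in D2A1, where it rose in 3D, against 3.48% of all genes (1.37% higher). In D2.OR none of the 9 passed in the edgeR test, against 1.62% of all genes, 1 of the 9 (Lif) had an unadjusted p under 0.05, as did 17.6% of all genes, and DESeq2 called 1, also Lif, against 6.98% of all genes. The ranges of the cultures did not overlap for Lif and Lifr in D2.OR (2 of 9, against 20.6% of all genes) and for Il6ra and Osmr in D2A1 (2 of 9, against 24.8%). For the interaction, which asks whether culture acts differently on the lines, no family gene passed with edgeR, against 0.0238% of all genes. There, 4 of 9 (Il6, Il11, Lif and Il6ra) had an unadjusted p under 0.05, against 17.8% of all genes, and DESeq2 called 3 (Il6, Lif and Il6ra), against 6.42% of all genes. Leaving out batch 1 raised these counts among all genes as well as in the family. Without it, 8 of the 9 genes were called for culture in D2A1 (all but Ctf1), against 36.3% of all genes, 2 in D2.OR (Lif and Osmr), against 8.38%, and 4 for the interaction (Il6, Il11, Lif and Il6ra), against 17.8%. Without batch 2 or batch 3 no family gene was called in these comparisons, and at most 1 of all genes tested was.

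**Figure D1:**
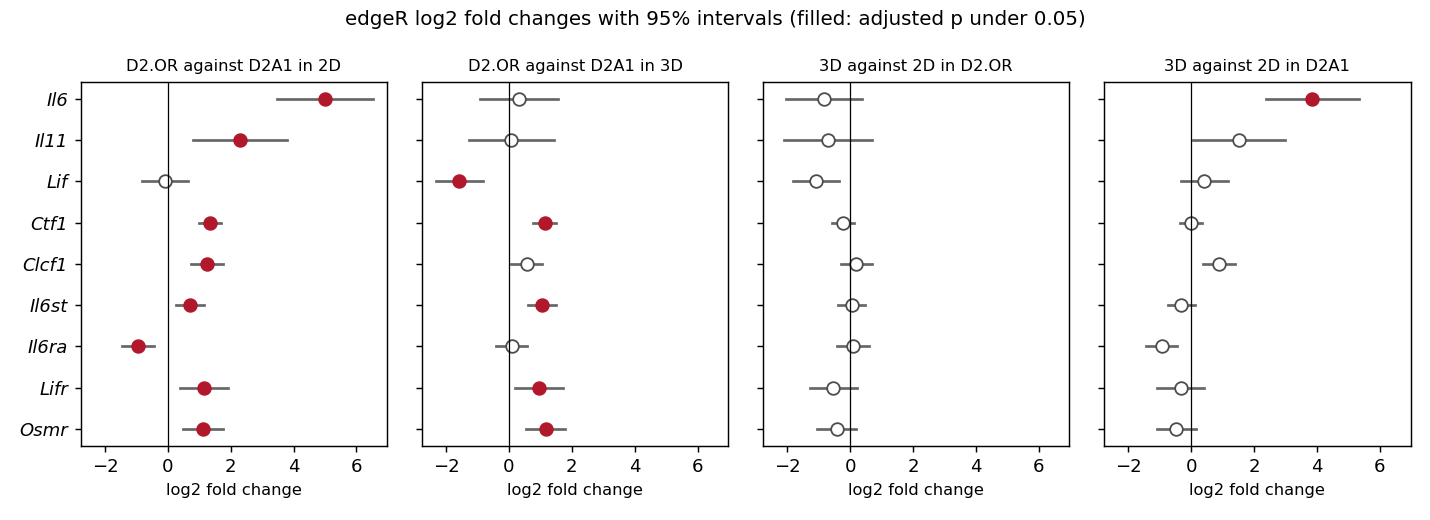
Log2 fold changes (x axis) of the 9 tested family genes (y axis) in the 4 comparisons, from the edgeR fit, with 95% intervals as lines and filled points for an adjusted p under 0.05. The Il6 points stand at 5.0 for the lines in 2D and at 3.85 for 3D against 2D in D2A1, and near 0 lie the Il6 and Il11 points for the lines in 3D.

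Il6 (ENSMUSG00000025746.11, chr5:30013114-30019981, plus strand) encodes interleukin 6, an inflammatory cytokine and the ligand after which the family is named. Its level in D2A1 in 2D was 0.23, 3.74 and 2.69 TPM in replicates 1, 2 and 3, and in D2A1 in 3D it was 0.67, 57.2 and 47.7 TPM. In D2.OR it was 6.48, 70.0 and 85.6 TPM in 2D and 4.48, 34.8 and 49.4 TPM in 3D. All 3 libraries of D2A1 in 2D lay below every D2.OR library, while replicate 1 was the lowest of each group and the ranges of D2A1 in 3D and of both D2.OR groups overlapped. In 2D, Il6 was 32.1-fold higher in D2.OR (log2 fold change 5.0 ± 0.68, SE, adjusted p = 0.000334), with log2 differences of 4.47, 4.49 and 5.28 in the 3 batches. This call held in all 19 alternatives, with adjusted p from 3.95e-16 to 0.0308.

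In 3D the lines were closer in Il6, with a log2 fold change of 0.33 ± 0.55 (SE, 95% interval -0.91 to 1.56, adjusted p = 0.631). The batches went apart there, with log2 differences of 2.91, -0.78 and 0.10. From 2D to 3D, Il6 rose 14.5-fold in D2A1 (log2 fold change 3.85 ± 0.66, SE, adjusted p = 0.0331), by 0.86, 4.21 and 4.44 on the log2 scale in batches 1, 2 and 3. In batch 1 this was a change from 7 to 20 counts. The call was lost without batch 2 (adjusted p = 0.516), without batch 3 (adjusted p = 0.538) and without the batch term (adjusted p = 0.131), and it held in 8 of 19 alternatives, with adjusted p from 5.91e-08 to 0.538. Leaving out 1 library of batch 2 or 3 of any group also ended it, with adjusted p between 0.0502 and 0.193, while the log2 fold change stayed between 3.22 and 4.33 in all 19.

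In D2.OR, Il6 was lower in 3D in each batch, by -0.69, -1.07 and -0.74 on the log2 scale, and the fitted change of -0.82 ± 0.53 (SE, 95% interval -2.03 to 0.39) did not pass (adjusted p = 0.46). The interaction of Il6 was -4.68 ± 0.84 (SE) on the log2 scale, with an adjusted p = 0.0892. It passed with DESeq2 (adjusted p = 8.31e-06), with no filter on low counts (0.0285), without batch 1 (0.00167), without replicate 1 of D2A1 in 2D (0.0142) and without replicate 1 of D2A1 in 3D (0.000916), 5 of 19 alternatives, whose adjusted p reached 0.847. Cd14, a marker on the leukocyte list, was at 17.7, 46.6 and 40.6 TPM in D2A1 in 2D and 30.3, 185 and 169 TPM in D2A1 in 3D. Cd68, another marker on it, went from 6.84, 16.8 and 32.1 TPM in 2D to 10.04, 6.21 and 5.65 TPM in 3D, so the higher sum in 3D came mainly from Cd14. The summed level of that list was 24.6 to 72.8 TPM in D2A1 in 2D, 40.4 to 192 TPM in D2A1 in 3D, 18.0 to 51.2 TPM in D2.OR in 2D and 12.9 to 56.0 TPM in D2.OR in 3D, with 6 of its 9 markers near 0 as above, and its part in the result was not tested.

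**Figure D2:**
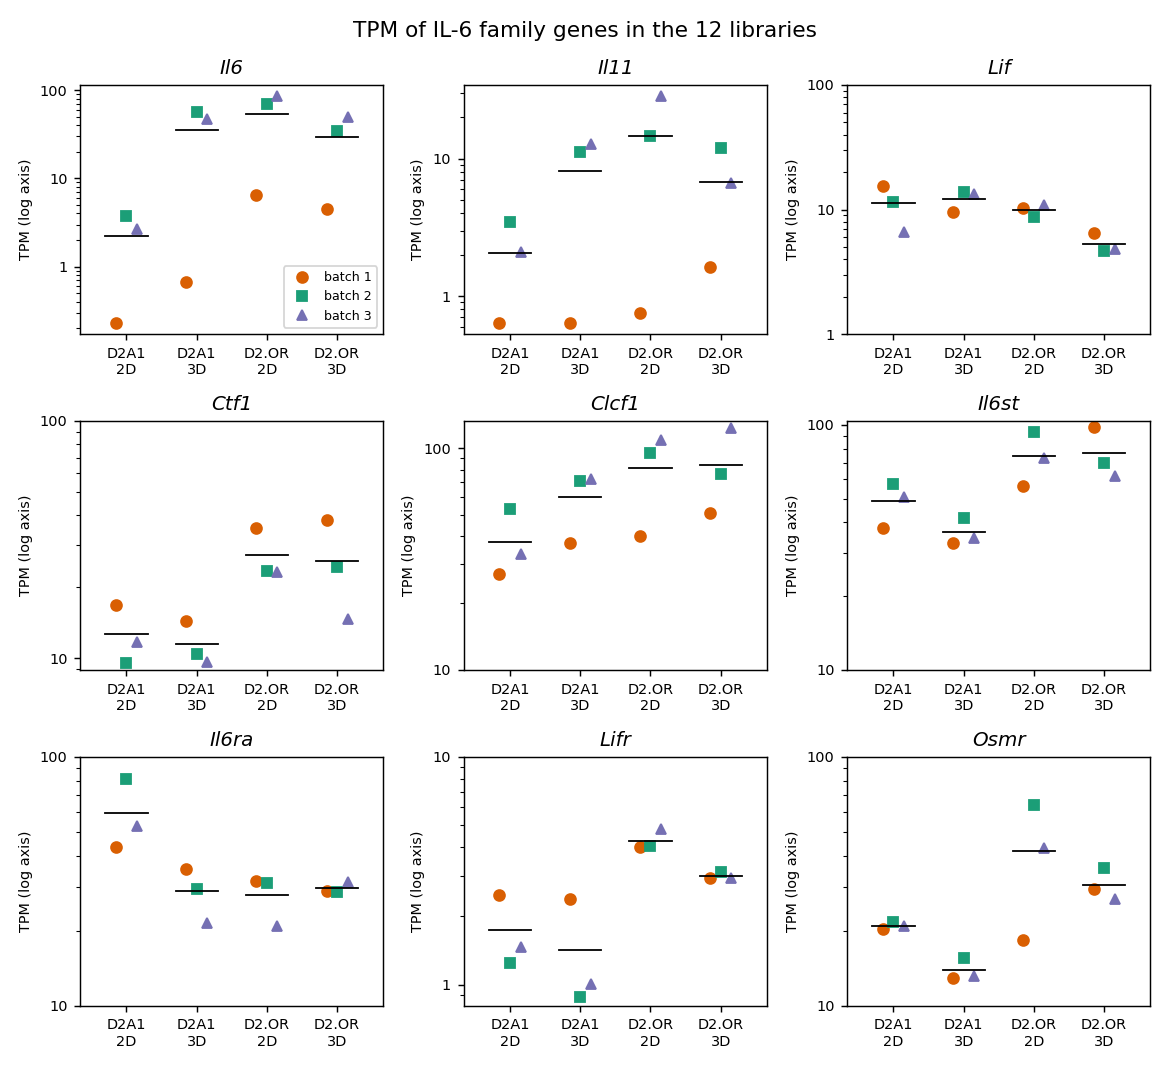
TPM (log axis) of the 9 tested family genes in the 12 libraries, by group on the x axis, with a symbol for each batch and a line at the group mean. Batch 1 lies lowest in every group for Il6 and Clcf1, and the D2A1 and D2.OR points of Lifr do not overlap within 2D or within 3D. Osm, at 0 in 11 libraries, is left out.

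Il11 (ENSMUSG00000004371.14, chr7:4772373-4782857, minus strand) encodes interleukin 11, a cytokine best known in bone and in fibrosis. It was at 0.64, 3.47 and 2.11 TPM in D2A1 in 2D, at 0.64, 11.2 and 12.8 TPM in D2A1 in 3D, at 0.75, 14.8 and 28.5 TPM in D2.OR in 2D and at 1.63, 12.02 and 6.70 TPM in D2.OR in 3D. Every group overlapped with the next in the order of its mean. In 2D, Il11 was 4.89-fold higher in D2.OR (log2 fold change 2.29 ± 0.66, SE, adjusted p = 0.0183), with log2 differences of 0.16, 2.15 and 3.85 in batches 1, 2 and 3. This call was lost in 6 of 19 alternatives, among them the fit without the batch term (adjusted p = 0.0986) and the fits without replicate 2 or 3 of D2A1 in 2D (0.0776 and 0.0914) or without replicate 3 of D2.OR in 2D (0.0769), and its adjusted p ranged from 0.000782 to 0.165.

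In 3D, Il11 had a log2 fold change between the lines of 0.08 ± 0.60 (SE, 95% interval -1.28 to 1.43, adjusted p = 0.924). Its log2 differences from 2D to 3D in D2A1 were -0.37, 1.81 and 2.65 in batches 1 to 3, with a fitted change of 1.51 ± 0.65 (SE) that did not pass (adjusted p = 0.149). The fit without batch 1 gave 2.20 (adjusted p = 0.00673), and the fit without replicate 1 of D2A1 in 2D gave 2.03 (adjusted p = 0.043). In D2.OR the batches differed in sign (1.01, -0.46 and -2.20).

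Clcf1 (ENSMUSG00000040663.8, chr19:4214238-4223490, plus strand) encodes cardiotrophin-like cytokine factor 1, a ligand that signals through gp130 and the LIF receptor. By mean TPM it was the most abundant ligand of the list in each of the 4 groups, at 27.2, 53.2 and 33.3 TPM in D2A1 in 2D and 37.5, 71.0 and 72.4 TPM in D2A1 in 3D. In D2.OR it reached 40.1, 94.6 and 109 TPM in 2D and 51.1, 76.3 and 123 TPM in 3D. Replicate 1 was the lowest of every group, and neighbours in the order of means overlapped. In 2D, Clcf1 was 2.38-fold higher in D2.OR (log2 fold change 1.25 ± 0.22, SE, adjusted p = 0.00156), a call that held in all 19 alternatives. In 3D the difference of 0.56 ± 0.22 (SE) did not pass (adjusted p = 0.0548), although all 3 batches had the same sign. It passed in 4 of 19 alternatives, among them those without replicate 3 of D2A1 in 2D (0.0118) and without replicate 2 of D2.OR in 3D (0.0225), with adjusted p up to 0.277. From 2D to 3D in D2A1, Clcf1 was higher in all 3 batches (0.72, 0.67 and 1.37 on the log2 scale), and the fitted 0.89 ± 0.22 (SE) had an adjusted p = 0.0544, with 4 of 19 alternatives under the threshold and a range from 0.00402 to 0.538. One of these left out replicate 1 of D2A1 in 2D (0.0188). In D2.OR the change was 0.20 ± 0.22 (SE, adjusted p = 0.679).

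Lif (ENSMUSG00000034394.14, chr11:4257557-4272514, plus strand) encodes leukemia inhibitory factor, which triggers STAT3 during mammary involution. Its level was 15.5, 11.5 and 6.59 TPM in D2A1 in 2D, 9.56, 13.7 and 13.4 TPM in D2A1 in 3D and 10.4, 8.69 and 10.9 TPM in D2.OR in 2D. D2.OR in 3D stood below these, at 6.48, 4.63 and 4.78 TPM, with no overlap with the other groups. In 3D, Lif was 3.00-fold lower in D2.OR than in D2A1 (log2 fold change -1.58 ± 0.33, SE, adjusted p = 0.00328), in all 3 batches and in 18 of 19 alternatives, with adjusted p from 1.25e-05 to 0.0724. In 2D the lines differed by -0.08 ± 0.32 (SE, 95% interval -0.81 to 0.65, adjusted p = 0.854).

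In D2.OR, Lif was lower in 3D in each batch, by -0.92, -1.04 and -1.26 on the log2 scale. The fitted change of -1.08 ± 0.33 (SE) had an adjusted p = 0.134, and it passed with DESeq2 (0.0231) and without batch 1 (0.0313), 2 of 19 alternatives with adjusted p up to 0.7. In D2A1 the batches differed in sign (-0.73, 0.70 and 1.31), and the interaction was -1.50 ± 0.46 (SE, adjusted p = 0.169). That interaction passed in 4 of 19 alternatives (0.00904 to 0.847), among them those without replicate 1 of D2A1 in 2D (0.0225) or in 3D (0.0361). Osm (ENSMUSG00000058755.3, chr11:4236420-4241026, plus strand), which encodes oncostatin M and lies 16.5 kb before Lif, was listed at 0 in 11 libraries. The library of D2.OR in 2D, replicate 1, held 1 count (0.04 TPM), and no fold or test is given.

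**Figure D3:**
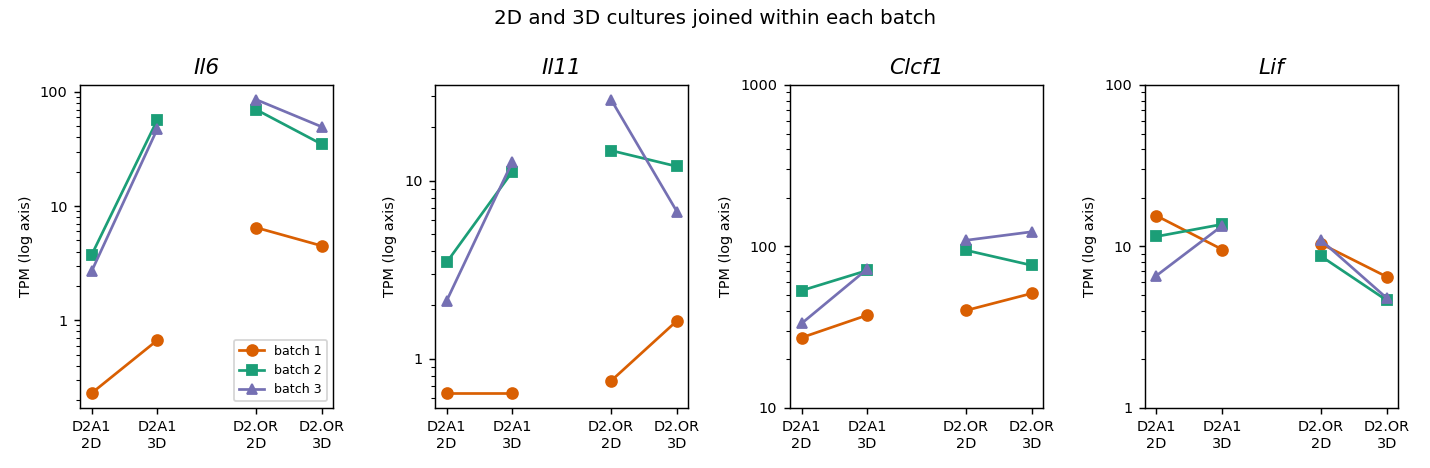
TPM (log axis) of Il6, Il11, Clcf1 and Lif in 2D and 3D, with the 2 cultures of a line and batch joined by a line. Il6 goes up in D2A1 and down in D2.OR in each of the 3 batches, and Lif goes down in D2.OR in each.

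Ctf1 (ENSMUSG00000042340.6, chr7:127712736-127718192, plus strand) encodes cardiotrophin 1, a ligand of gp130 and the LIF receptor first studied in heart muscle. It was at 16.8, 9.56 and 11.7 TPM in D2A1 in 2D, 14.3, 10.4 and 9.68 TPM in D2A1 in 3D, 35.3, 23.2 and 23.2 TPM in D2.OR in 2D and 38.2, 24.2 and 14.6 TPM in D2.OR in 3D. The lines did not overlap within a culture. Ctf1 was 2.52-fold higher in D2.OR in 2D (log2 fold change 1.33 ± 0.16, SE, adjusted p = 0.000155) and 2.19-fold higher in 3D (1.13 ± 0.16, SE, adjusted p = 0.000343), and both calls held in all 19 alternatives. Culture changed it by -0.22 ± 0.15 in D2.OR and -0.02 ± 0.16 in D2A1 (log2, SE), neither of which passed (adjusted p = 0.494 and 0.946). Ctf2 overlaps it on the opposite strand and reached 0.52 TPM at most, and the strandedness of the counting is not given in the sources used here.

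Il6st (ENSMUSG00000021756.12, chr13:112464070-112510086, plus strand) encodes gp130, the subunit through which every ligand of the family signals. Its level was 38.0, 57.4 and 50.8 TPM in D2A1 in 2D, 32.8, 41.8 and 34.7 TPM in D2A1 in 3D, 56.3, 93.5 and 73.4 TPM in D2.OR in 2D and 98.4, 70.2 and 62.0 TPM in D2.OR in 3D. In 3D each D2.OR library lay above every D2A1 library, whereas in 2D the ranges overlapped. It was higher in D2.OR by 0.71 ± 0.20 on the log2 scale in 2D (SE, adjusted p = 0.0149) and by 1.07 ± 0.20 in 3D (SE, adjusted p = 0.00178). The 3D call held in all 19 alternatives and the 2D call in 14, with adjusted p from 0.000454 to 0.119. The 2D call was lost without replicate 1 of D2A1 in 2D (0.051), replicate 2 of D2.OR in 2D (0.076) or replicate 3 of D2.OR in 2D (0.0504).

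Il6ra (ENSMUSG00000027947.11, chr3:89864059-89913196, minus strand) encodes the alpha receptor that binds IL-6 itself. D2A1 in 2D stood apart at 43.5, 81.6 and 52.4 TPM, above all 9 other libraries, which spanned 20.9 to 35.4 TPM. In 2D it was 1.92-fold lower in D2.OR (log2 fold change -0.94 ± 0.22, SE, adjusted p = 0.00682), in 17 of 19 alternatives, and the log2 differences were -0.32, -1.27 and -1.18 in the batches. In D2A1, Il6ra was lower in 3D in each batch (-0.29, -1.32 and -1.16), and the fitted -0.94 ± 0.22 (SE) had an adjusted p = 0.0513. That value passed in 6 of 19 alternatives, over a range of adjusted p from 0.00184 to 0.538, among them the fit without batch 1 (0.00236) and those without replicate 1 of D2A1 in 2D (0.00379) or in 3D (0.0255). Between the lines in 3D the difference was 0.09 ± 0.22 (SE, 95% interval -0.41 to 0.58), and the interaction was 1.03 ± 0.31 (SE, adjusted p = 0.167). It passed in 3 of 19 alternatives (0.0108 to 0.847), 1 of them without replicate 1 of D2A1 in 2D (0.0189). The antisense gene Gm42809 overlaps Il6ra and reached 1.53 TPM at most.

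Lifr (ENSMUSG00000054263.11, chr15:7129559-7197489, plus strand) encodes the LIF receptor, the signaling partner of gp130 for LIF, CT-1 and CLCF1, and it was the least abundant receptor of the list in all 12 libraries. It was at 2.48, 1.25 and 1.46 TPM in D2A1 in 2D, 2.38, 0.88 and 1.01 TPM in D2A1 in 3D, 4.0, 4.04 and 4.81 TPM in D2.OR in 2D and 2.94, 3.13 and 2.93 TPM in D2.OR in 3D. The D2.OR libraries lay above those of D2A1 within each culture. Lifr was 2.21-fold higher in D2.OR in 2D (log2 fold change 1.15 ± 0.34, SE, adjusted p = 0.02) and 1.93-fold higher in 3D (0.95 ± 0.34, SE, adjusted p = 0.0408). The 2D call held in 13 of 19 alternatives (adjusted p 0.000174 to 0.173) and the 3D call in 9 (0.000172 to 0.331). Leaving out replicate 2 or 3 of D2A1 in 2D, or replicate 2 of D2.OR in 2D, ended both calls, with adjusted p between 0.0526 and 0.0818, and the 3D call was also lost without replicate 2 or 3 of either line in 3D (0.104 to 0.17) and the 2D call without replicate 3 of D2.OR in 2D (0.087). In batch 1 the 3D difference was -0.05 on the log2 scale, against 1.63 and 1.35 in batches 2 and 3.

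Osmr (ENSMUSG00000022146.12, chr15:6813577-6874969, minus strand) encodes the oncostatin M receptor, whose gene lies 255 kb from Lifr. Its level was 20.3, 21.6 and 20.9 TPM in D2A1 in 2D, 12.9, 15.6 and 13.2 TPM in D2A1 in 3D, 18.3, 64.2 and 42.9 TPM in D2.OR in 2D and 29.4, 35.6 and 26.8 TPM in D2.OR in 3D. D2A1 in 3D was the lowest group, with no overlap with D2A1 in 2D, and D2.OR in 2D spread the most. In 2D it was 2.19-fold higher in D2.OR (log2 fold change 1.13 ± 0.28, SE, adjusted p = 0.00931), although batch 1 differed by only 0.05 on the log2 scale against 1.72 and 1.39 in batches 2 and 3. That call was lost without replicate 2 of D2A1 in 2D (adjusted p = 0.0519) and held in 16 of 19 alternatives (2.08e-05 to 0.15). In 3D it was 2.24-fold higher (1.17 ± 0.28, SE, adjusted p = 0.00671), by 1.16, 1.18 and 1.16 in the 3 batches, and 17 of 19 alternatives kept an adjusted p under 0.05 (3.12e-05 to 0.0689). The differences of Osmr from 2D to 3D were -0.43 ± 0.28 in D2.OR and -0.47 ± 0.28 in D2A1 (log2, SE), with adjusted p = 0.454 and 0.271. Without replicate 1 of D2.OR in 2D both passed (-0.82 and -0.47, adjusted p = 0.0169 and 0.0449), as in 2 of 19 alternatives each (0.00612 to 0.966 in D2.OR, 0.0166 to 0.669 in D2A1).

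Sums of epithelial and of fibroblast markers also differed in range between the lines. No other cells were named for these cell line cultures. The summed level of 8 epithelial markers was 205 to 297 TPM in D2A1 in 2D against 1167 to 1723 TPM in D2.OR in 2D, and 94.0 to 221 TPM against 425 to 879 TPM in 3D. That of 7 fibroblast markers was 57.2 to 78.1 TPM against 183 to 337 TPM in 2D and 28.6 to 43.9 TPM against 118 to 322 TPM in 3D, with Lum and Thy1 under 0.5 TPM everywhere. Their part in the differences of the cytokines and receptors between the lines was not tested.

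The batches differed in several ligands of the family. Batch 1 was lower than batches 2 and 3 in Il6 (log2 difference -4.10 ± 0.54, SE, adjusted p = 0.00309), Il11 (-3.35 ± 0.56, SE, adjusted p = 0.00734) and Clcf1 (-0.96 ± 0.17, SE, adjusted p = 0.00904), and higher in Ctf1 (0.65 ± 0.11, SE, adjusted p = 0.00857). These are 4 of the 9 tested genes, against 13.3% of all genes (8.48% higher, 4.8% lower), and each held in all 15 alternatives. Il6 averaged 2.96 TPM over the 4 libraries of batch 1, 41.4 TPM in batch 2 and 46.4 TPM in batch 3. None of the 4 receptors, nor Lif, passed in this comparison, although without replicate 1 of D2.OR in 3D Il6st was lower in batch 1 (-0.46, adjusted p = 0.0152, range over 15 alternatives 0.0152 to 0.697). Lif averaged 10.5, 9.63 and 8.93 TPM in the 3 batches.

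Across the 12 libraries, Il6, Il11 and Clcf1 varied together on the log2 CPM scale (counts scaled to library size). Pearson's r was 0.91 for Il6 and Il11, 0.91 for Il6 and Clcf1 and 0.80 for Il11 and Clcf1, and the batch difference above is shared by all 3. Lif followed none of them (r = -0.08, 0.02 and -0.27). Among the receptors, Il6st and Osmr had r = 0.88, and Il6ra had a negative r with 8 of 8 other tested family genes. These values describe 12 libraries that share cell line, culture and batch, and no test was made of them.

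Over the 13829 genes with at least 1 TPM in a group, the genes most like Il6 by Pearson's r over the 12 libraries were Dpy19l1 (0.98), U90926 (0.96) and Areg (0.96), the last of which encodes the EGF receptor ligand amphiregulin. For Il11 they were Tdg, Gja1 and Ramp3 (0.92 to 0.93), for Clcf1 Plaur, Sult2b1 and U90926 (0.95 to 0.97), and for Lif Slc25a24, Ccdc120 and Dnajc22 (0.88 to 0.91). Ctf1 was closest to Scx (0.99), Akr1c14 and Arhgap5 (0.97 each). For the receptors they were Tle1, Rev3l and Adgrl1 with Il6st (0.97 each), Mgea5, Zkscan14 and 5730455P16Rik with Il6ra (0.91 to 0.93), Epsti1, Akap12 and Tgtp2 with Lifr (0.95 to 0.96) and Usp47, Zswim6 and 2610307P16Rik with Osmr (0.95 to 0.97).

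The neighbours of the paired loci did not all move like the family genes. Around Osm and Lif, the nearest tested genes were Sf3a1, Tbc1d10a and Gatsl3 before them and Hormad2, Mtmr3 and Ascc2 after. In 3D, where Lif was lower in D2.OR, Sf3a1 was also lower (log2 fold change -1.09 ± 0.08, SE, adjusted p = 7.93e-06), as was Gatsl3 (-1.09 ± 0.20, SE, adjusted p = 0.0019). Unlike Lif, both were lower in 2D too (-0.94 and -0.87). Of the other neighbours in 3D, Hormad2 was lower at a median level of 0.075 TPM, and Tbc1d10a (0.26), Mtmr3 (0.11) and Ascc2 (-0.25) did not pass. So 3 of the 6 were lower, against 26.1% of all genes. Around Osmr and Lifr, Rictor, 13.2 kb from Osmr, was higher in D2.OR by 0.43 ± 0.14 in 2D and 0.66 ± 0.14 in 3D (log2, SE, adjusted p = 0.0279 and 0.00329). Egflam, 8.63 kb from Lifr, was higher in both cultures at a median level of 0.075 TPM, while Gdnf was lower (-3.00 ± 0.20 in 2D, SE, adjusted p = 4.82e-06). Fyb (2.95 in 2D) and Gm7666 (-0.73 in 2D) went opposite ways, and Wdr70 differed by 0.31 in 3D (adjusted p = 0.024).

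Other genes of the pathway were taken from 5 lists of 65 genes, of which 60 were tested. Between the lines, 30 of the 60 passed in 2D (20 higher in D2.OR, 10 lower) and 32 in 3D (22 higher, 10 lower), close to the shares of all genes given above. Between cultures, 1 of 60 passed in D2.OR and 3 of 60 in D2A1, against 1.62% and 3.48% of all genes. For the interaction the edgeR test called none, and DESeq2 called 5 of 60, against 6.42% of all genes. Between batch 1 and the others, 23 of 60 passed (38.3%), against 13.3% of all genes.

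Il11ra1, the alpha receptor of IL-11, was at 31.1, 37.3 and 34.5 TPM in D2A1 in 2D and at 18.3, 8.57 and 6.33 TPM in D2.OR in 2D, lower by -1.70 ± 0.48 on the log2 scale (SE, adjusted p = 0.0164), a call lost in 7 of 19 alternatives (up to 0.146). Cntfr, the CNTF receptor, was lower in D2.OR in 2D by the test, with levels of 0.00, 0.00 and 0.02 TPM against 0.12, 0.59 and 0.26 TPM in D2A1, and no fold is given at this level. That call was lost in 8 of 19 alternatives (up to 0.208). Of the 11 genes on this list of other ligands and receptors, Il27, Ebi3, Il31, Il11ra2 and Il31ra failed the filter, and 6 were tested.

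Among 12 signal transducers, 4 were higher in D2.OR and 1 was lower in 2D, and 7 were higher and 1 was lower in 3D. Of all genes, 25.4% were higher and 24.4% lower in 2D, and 27.7% and 26.1% in 3D. Jak1, the main kinase bound to gp130, was at 59.5 to 79.4 TPM in D2A1 and 103 to 117 TPM in D2.OR over both cultures, with log2 fold changes of 0.75 ± 0.09 in 2D (SE, adjusted p = 0.00017) and 0.85 ± 0.09 in 3D (SE, adjusted p = 7.21e-05). Jak2 was higher by 1.23 ± 0.19 and 1.27 ± 0.19, and the adaptor Gab1 by 0.86 ± 0.15 and 1.20 ± 0.15 (log2, SE). The 2D call of Gab1 was lost in 1 of 19 alternatives (adjusted p = 0.0515). The adaptor Shc1 was lower in 2D (-0.99 ± 0.20, SE) and Ptpn11, which encodes the phosphatase SHP2, passed in 2D at 0.33 ± 0.12 (SE, adjusted p = 0.0438), a call lost in 13 of 19 alternatives (up to 0.392), and in 3D at 0.44 ± 0.12 (SE, adjusted p = 0.0123), where it was higher in 3 of 3 batches. In 3D, Stat5b was higher (0.77 ± 0.15, SE) and Grb2 was lower (-0.36 ± 0.08, SE), a call lost in 2 of 19 alternatives (adjusted p up to 0.137). Shc1 did not pass in 3D (-0.35), nor Stat5b (0.41) and Grb2 (-0.20) in 2D. Stat3 itself had log2 fold changes of 0.07 ± 0.14 in 2D and 0.18 ± 0.14 in 3D (SE, adjusted p = 0.712 and 0.302), and it is named here for its role, after its values were seen.

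Of 10 signal inhibitors, 3 were higher and 1 was lower in 2D, and 2 were higher and 3 were lower in 3D. The shares over all genes were 25.4% and 24.4% in 2D and 27.7% and 26.1% in 3D. Socs2, which restrains cytokine and growth hormone signaling, was at 2.38 to 5.56 TPM in D2A1 and 35.9 to 110 TPM in D2.OR, a log2 fold change of 4.65 ± 0.32 in 2D (SE, adjusted p = 6.2e-06) and 4.75 ± 0.32 in 3D (SE, adjusted p = 5.45e-06). Socs3, the feedback inhibitor of gp130, was at 35.7, 168 and 90.2 TPM in D2A1 in 3D and 23.0, 46.0 and 53.5 TPM in D2.OR in 3D, lower by -1.15 ± 0.29 on the log2 scale (SE, adjusted p = 0.00889). Socs1 was lower in both cultures (-0.75 and -0.71) and Ptpn1, which encodes the phosphatase PTP1B, was higher in both (0.66 and 0.47). Of these calls, that of Ptpn1 in 3D was lost in 6 of 19 alternatives (adjusted p up to 0.161), those of Ptpn1 in 2D and Socs3 in 3D in 2 each (up to 0.106 and 0.16) and that of Socs1 in 2D in 1 (0.0674). Cish passed in 2D (0.63, adjusted p = 0.0493), a call lost in 14 of 19 alternatives (up to 0.334), and Ptpn6 passed in 3D (-0.88), lost in 3.

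Of 27 genes listed as STAT3 targets, 10 were higher and 6 lower in D2.OR in 2D, with a median log2 fold change of -0.04, and 9 were higher and 5 lower in 3D, with a median of 0.37. All genes had 25.4% higher and 24.4% lower in 2D, and 27.7% and 26.1% in 3D. Icam1, an adhesion molecule, and Igfbp5 were higher in D2.OR in both cultures by the test, in all 19 alternatives. Icam1 lay at 0.02 to 0.11 TPM in D2A1 and 0.42 to 3.29 TPM in D2.OR, and Igfbp5 at 0.00 to 0.22 TPM and 0.54 to 8.15 TPM, and no fold is given over these low D2A1 levels. Myc was higher by 1.71 ± 0.27 and 2.45 ± 0.27 in 2D and 3D (log2, SE) and the protease gene Ctsb by 1.62 ± 0.18 and 1.68 ± 0.18. Pim3 was lower in both cultures (-1.52 ± 0.26 in 2D and -1.20 ± 0.26 in 3D, SE), as was Ctsl (-0.45 ± 0.13 and -0.75 ± 0.13, SE), whose 3D call was lost in 1 of 19 alternatives (0.0507). In D2.OR, Lcn2, an acute phase gene, rose in 3D (1.76 ± 0.35, SE, adjusted p = 0.0454), from 87.3, 339 and 259 TPM to 362, 1182 and 750 TPM. It was also higher in 3D in D2A1, from 113, 888 and 1034 TPM to 564, 2699 and 1231 TPM, without passing the test. In D2A1, Bcl3 rose (0.86 ± 0.16, SE, adjusted p = 0.0359), and Lbp (-2.37 ± 0.50, SE, adjusted p = 0.0453) and Bcl2l1 (-0.86 ± 0.19, SE, adjusted p = 0.0478) fell. None of these 3 passed in D2.OR. There Lbp was also lower in 3D, from 52.0, 28.5 and 16.9 TPM to 39.1, 11.4 and 11.1 TPM. Bcl3 went down in D2.OR, from 17.8, 49.6 and 55.5 TPM to 13.8, 26.3 and 36.0 TPM. Bcl2l1 went from 254, 138 and 132 TPM to 319, 132 and 132 TPM there. These culture calls were lost in 12 of 19 alternatives for Lcn2 (adjusted p up to 0.588), 10 for Bcl3, 13 for Lbp and 12 for Bcl2l1 (up to 0.538 for each of the 3), among them the fit without the batch block and those without batch 2 or batch 3.

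The receptor shedding list holds the proteases that release soluble IL-6 receptor and the regulators of their transport. Of its 5 genes, 2 passed in 2D (Rhbdf2 at 0.46 ± 0.16, adjusted p = 0.0422, and Adam17 at 0.31 ± 0.11, adjusted p = 0.0497, log2, SE), close to the threshold, and these calls were lost in 14 and 16 of 19 alternatives, with adjusted p up to 0.165 and 0.318. In 3D, Rhbdf1 (0.85 ± 0.14, SE), Adam10 (0.84 ± 0.14, SE) and Rhbdf2 (0.77 ± 0.16, SE) were higher and Sorl1 was lower (-1.88 ± 0.37, SE). The 3D call of Rhbdf2 was lost in 1 of 19 alternatives (adjusted p = 0.0585). Of all genes, 25.4% were higher in D2.OR and 24.4% lower in 2D, and 27.7% and 26.1% in 3D. Rhbdf1 (0.35), Adam10 (0.32) and Sorl1 (-0.84) had the same sign in 2D and did not pass there.

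**Figure D4:**
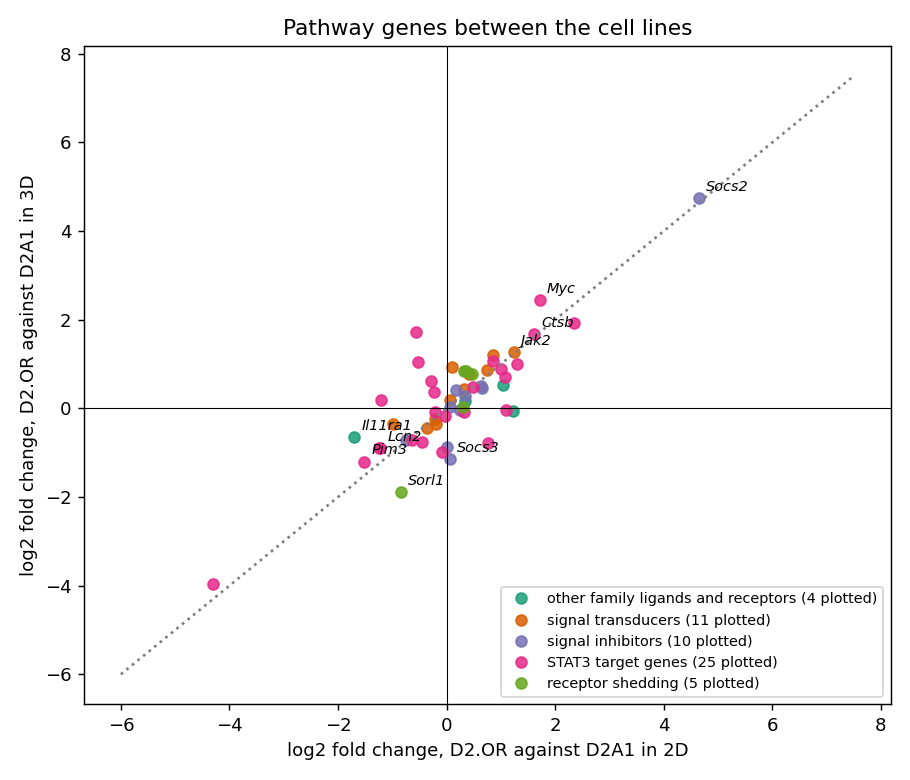
Log2 fold changes of the pathway genes between D2.OR and D2A1 in 2D (x axis) and in 3D (y axis), colored by list, with a dotted line where both are equal. Socs2 stands at 4.65 or above in both cultures, not every tested gene is drawn, and Cntfr, Icam1 and Igfbp5 are left out because a group they compare lies at 0.22 TPM or less.

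The batch difference of Il6 was accompanied by pathway genes. Socs3 was lower in batch 1 (log2 difference -1.78 ± 0.24, SE, adjusted p = 0.0032), with levels of 23.0 to 35.7 TPM in batch 1 and 46.0 TPM or more in the others. Bcl3 (-1.64 ± 0.13, SE), Lcn2 (-1.98 ± 0.28, SE), Cish (-1.24 ± 0.19, SE), Socs2 (-0.88 ± 0.22, SE) and Adam17 (-0.53 ± 0.09, SE) were also lower in batch 1. Nnmt (1.80 ± 0.29, SE), Bcl2l1 (1.27 ± 0.14, SE) and Sorl1 (1.33 ± 0.26, SE) were higher, as were Stat5a (0.63), Gab1 (0.41), Pias1 (0.49) and Rhbdf1 (0.68). Nnmt lay at only 0.18 to 2.23 TPM. Icam1 also passed as higher, and no fold is given because its D2A1 libraries lay at 0.02 to 0.11 TPM. The batch calls of Stat5a, Gab1, Pias1 and Socs2 were lost in 10, 11, 8 and 4 of 15 alternatives. Those of Icam1 and Sorl1 were lost in 1 each (adjusted p = 0.0725 and 0.0502). Of the 27 STAT3 target genes, 6 were higher in batch 1 and 7 lower, against 13.3% called among all genes.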

How the data were processed

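The RNA-seq data hold 3 libraries for each of 2 cell lines and 2 cultures. The authors trimmed reads with Trimmomatic (0.32), aligned them with STAR (2.5.3) to GRCm38 with a GENCODE annotation and quantified genes with RSEM (1.3.0), per their methods and processing notes. The deposited expected count of each gene is not normalized and shares reads that fit several genes, and the deposited TPM is scaled by the authors for gene length and library size. The deposited FPKM was not used. RSEM shares ambiguous reads, so levels of genes with near copies are less certain.

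Expected counts were rounded (10.7% to 11.8% of a library's genes were not whole) and fitted with edgeR 4.0.16 in R 4.3.3 by its quasi-likelihood test, after TMM scaling and filterByExpr. The model has a term per group and a batch block, and all 12 libraries share 1 estimate of spread (biological coefficient of variation 21.2%). P-values were adjusted by Benjamini and Hochberg over 16823 genes and called under 0.05. SE is the log2 fold change divided by the root of F. Batch differences of single pairs are of log2 CPM with a prior count of 2. The block follows the batch given in the labels. As a check, deviations from group means had r from 0.076 to 0.511 (median 0.267) over the 18 same-numbered pairs of libraries, against a median of -0.195 over the other 36. No pair of libraries was identical. The test was first tried on simulated counts, and the outcome is not given here and is no support for any single call.

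The family genes, the pathway lists, the rule for named genes and the tests were chosen with earlier results of these data known. Named are the 10 family genes, up to 5 called genes per list and comparison by p, the 3 genes most like each family gene by r, and the 3 nearest tested neighbours on each side of Osm and Lif and of Osmr and Lifr. Alternatives were to drop the block, DESeq2 1.42.0, its size factors in edgeR, no filter on low counts, and each batch or library left out. Tables and plots were made with Python 3.11.15, pandas 2.3.3 and matplotlib 3.10.9. Some genes of the lists are counted but not reported by name here.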

Additional observations from a re-analysis of the deposited data

Results flagged for a closer look

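The differences of Il6 between cultures had opposite signs in the lines, and that in D2.OR did not pass the test. In D2A1 it was higher in 3D in 3 of 3 batches (log2 differences 0.86, 4.21 and 4.44), and in D2.OR it was lower in 3 of 3 batches (-0.69, -1.07 and -0.74). The fitted change was called in D2A1 (adjusted p = 0.0331), a call lost in 11 of 19 alternatives. In D2.OR it was -0.82 on the log2 scale (95% interval -2.03 to 0.39, adjusted p = 0.46) and was called in 0 of 19 (adjusted p from 0.0663 to 0.873). The interaction term (the effect in D2.OR minus that in D2A1) was -4.68 on the log2 scale (SE 0.84) and did not pass the edgeR test (adjusted p = 0.0892). It reached an adjusted p under 0.05 in 5 of 19 alternatives, over a range from 8.31e-06 to 0.847.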

How the results depend on the processing

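Family genes called between the lines numbered 8 in 2D and 5 in 3D, and with an edgeR fit without the batch block 7 and 4, with DESeq2 8 and 6, with DESeq2's size factors 8 and 6, and with no filter on low counts 8 and 5. The counts within a line depended on the tool, over all genes too: DESeq2 called 23.2% of all genes for culture in D2A1, 6.98% in D2.OR and 6.42% for the interaction, against 3.48%, 1.62% and 0.0238% with edgeR. For 3D against 2D in D2A1, 1 family gene was called, 0 without the block, 3 with DESeq2, 2 with its size factors and 3 with no filter, and 3 pathway genes were called, 0 without the block, 19 with DESeq2 and 7 with no filter. For D2.OR, 0 family genes became 1 with DESeq2, and 1 pathway gene became 0 without the block, 6 with DESeq2 and 4 with no filter. For the interaction, 0 family genes became 3 with DESeq2 and 1 with no filter, and 0 pathway genes became 5 and 1. With a batch or a library left out, family genes called ranged from 3 to 8 between the lines in 2D, 2 to 5 in 3D, 0 to 2 for culture in D2.OR, 0 to 8 for culture in D2A1, 0 to 4 for the interaction and 4 to 5 for the batch. Pathway genes ranged from 13 to 38, 17 to 40, 0 to 7, 0 to 25, 0 to 14 and 16 to 26 in the same order. Without batch 1, 8 family genes were called in 2D, 5 in 3D, 2 for culture in D2.OR, 8 for culture in D2A1 and 4 for the interaction, against 53.8%, 56.9%, 8.38%, 36.3% and 17.8% of all genes. Without batch 2 these were 3, 2, 0, 0 and 0, against 24.9%, 31.0%, 0%, 0% and 0%, and without batch 3 they were 3, 3, 0, 0 and 0, against 31.8%, 35.2%, 0.006%, 0% and 0%. Fewer libraries leave fewer degrees of freedom, and otherwise the cause was not tested.

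Directions turned in the following values. Without the block, the 3D line difference was -0.27 for Il6 and -0.40 for Il11, and the interaction of Osmr was -0.053. The batch difference of Il6ra was -0.015 with DESeq2, -0.015 with its size factors and -0.0095 with no filter. With a library or batch left out, Lif between the lines in 2D ranged from -0.45 to 0.31, and in 3D Il6 from -0.33 to 1.06, Il11 from -0.52 to 0.62 and Il6ra from -0.17 to 0.28. For culture in D2.OR, Il11 ranged from -1.38 to 0.22, Clcf1 from -0.071 to 0.39, Il6st from -0.31 to 0.27 and Il6ra from -0.18 to 0.27, and for culture in D2A1 Ctf1 ranged from -0.10 to 0.061. The interaction ranged from -0.45 to 0.31 for Lifr and from -0.38 to 0.37 for Osmr, and the batch difference from -0.15 to 0.41 for Lif and from -0.13 to 0.18 for Il6ra. The batch comparison could not be fitted without the block or without a batch. Of 990 values of the family genes under the alternatives, 855 kept their direction and their side of the threshold, 46 lost a call, 39 gained one and 50 turned. At 0 to 1 count per library, the depth sets no level for Osm.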
